A study of Saccharomyces cerevisiae with 8 samples.

Results

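Untreated budding yeast (Saccharomyces cerevisiae) carrying the mutant allele ubc9-1 was compared with a wild-type (WT) strain, over all features of a table of small RNA counts. The comparison used 4 of the 8 libraries of the series, 2 of WT and 2 of ubc9-1, all from cells grown in rich YPD medium without drug, and 6115 of the 7126 features in the table had enough counts to be tested. Both strains were also sampled after 30 minutes in 100 nM rapamycin, a drug that inhibits TORC1, with 2 libraries each, and those 4 libraries serve below as a separate set for the same strain difference. RNA was total RNA selected for a length of 50 to 100 nt. The labels give neither the strain background nor the growth temperature, and do not say whether replicates came from separate cultures, so p-values measure only the spread between these libraries, which may be technical.

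UBC9 encodes the enzyme that conjugates SUMO, a small protein modifier, to its targets, many of which are nuclear proteins. RNA polymerase III makes tRNA, 5S rRNA, the U6 snRNA SNR6, the signal recognition particle RNA SCR1 and the RNase P RNA RPR1, and the series title names its control through SUMO as the subject. C/D box snoRNAs, most of them made by RNA polymerase II, guide the 2′-O-methylation of rRNA, and H/ACA box snoRNAs guide its pseudouridylation.

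The 5 C/D box snoRNAs with the lowest log2 fold changes are shown, and a pair that did not pass the threshold. Sequences are as annotated in RefSeq for the R64 genome. Capitals mark the C box (TGATGA, searched in the first 20 bases of the transcribed strand) and the D box (CTGA, searched in the last 20). SNR58 lies at chrXV:136088-136183 on the minus strand, SNR39B at chrVII:366374-366469 on the minus strand, SNR55 at chrXII:794697-794794 on the minus strand, SNR69 at chrXI:364776-364876 on the plus strand and SNR60 at chrX:349130-349233 on the minus strand. SNR79, at chrXII:348427-348510 on the minus strand, and SNR78, at chrXIII:297278-297364 on the plus strand, are the contrast.
SNR58: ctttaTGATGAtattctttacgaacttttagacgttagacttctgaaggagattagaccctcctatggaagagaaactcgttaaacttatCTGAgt
SNR39B: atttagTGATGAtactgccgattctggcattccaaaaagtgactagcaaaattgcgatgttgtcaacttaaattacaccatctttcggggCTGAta
SNR55: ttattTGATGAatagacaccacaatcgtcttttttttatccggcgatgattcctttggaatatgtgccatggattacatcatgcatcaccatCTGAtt
SNR69: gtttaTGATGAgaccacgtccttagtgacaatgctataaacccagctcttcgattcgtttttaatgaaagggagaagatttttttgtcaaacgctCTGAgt
SNR60: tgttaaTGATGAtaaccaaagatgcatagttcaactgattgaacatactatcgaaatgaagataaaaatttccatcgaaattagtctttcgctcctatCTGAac
SNR79: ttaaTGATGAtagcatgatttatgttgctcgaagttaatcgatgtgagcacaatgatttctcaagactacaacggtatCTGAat
SNR78: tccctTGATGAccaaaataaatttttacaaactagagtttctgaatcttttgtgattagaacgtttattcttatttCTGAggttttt
Both letter strings were present in 36 of the 47 C/D box snoRNAs and in 0 of the 29 H/ACA box snoRNAs. They were present in 11 of the 13 C/D box snoRNAs that were lower in ubc9-1 and in 20 of the 28 that were tested and did not pass the threshold, so the lowered ones did not stand out by these boxes.

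The tRNA genes shown next are 1 from each of the 5 anticodon families with the lowest log2 fold changes and of the 3 with the highest. Capitals mark the intron in the first 4, which is removed from the mature tRNA, and the anticodon in the last 4, which have none. The genes are tL(CAA)C at chrIII:90859-90972 on the plus strand, tP(UGG)L at chrXII:92548-92650 on the plus strand, tF(GAA)F at chrVI:157916-158007 on the minus strand, tI(UAU)L at chrXII:605300-605432 on the minus strand, tL(UAA)B1 at chrII:9583-9666 on the plus strand, tS(UGA)P at chrXVI:689565-689646 on the plus strand, tR(CCU)J at chrX:538555-538626 on the plus strand and tI(AAU)D at chrIV:668007-668080 on the minus strand.
tL(CAA)C: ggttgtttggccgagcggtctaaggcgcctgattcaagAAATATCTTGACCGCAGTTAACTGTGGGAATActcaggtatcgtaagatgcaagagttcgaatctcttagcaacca
tP(UGG)L: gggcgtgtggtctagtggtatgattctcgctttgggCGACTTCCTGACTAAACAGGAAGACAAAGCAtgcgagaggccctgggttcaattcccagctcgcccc
tF(GAA)F: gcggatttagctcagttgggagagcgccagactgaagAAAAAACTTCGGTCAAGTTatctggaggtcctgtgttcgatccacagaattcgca
tI(UAU)L: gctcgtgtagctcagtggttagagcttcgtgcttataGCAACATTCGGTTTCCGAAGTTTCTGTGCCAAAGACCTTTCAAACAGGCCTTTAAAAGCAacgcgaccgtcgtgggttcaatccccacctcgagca
tL(UAA)B1: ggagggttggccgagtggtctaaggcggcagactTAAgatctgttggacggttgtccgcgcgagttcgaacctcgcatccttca
tS(UGA)P: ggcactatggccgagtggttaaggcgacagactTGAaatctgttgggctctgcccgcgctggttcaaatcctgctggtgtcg
tR(CCU)J: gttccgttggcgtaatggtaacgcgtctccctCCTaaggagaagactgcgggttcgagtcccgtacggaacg
tI(AAU)D: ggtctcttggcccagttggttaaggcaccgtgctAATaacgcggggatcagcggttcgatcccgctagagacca
The introns measure 32, 31, 19 and 60 bases in the order shown, and the genes with them 114, 103, 92 and 133 bases, against 84 for tL(UAA)B1.

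The 4 untreated libraries held 16173246 to 20819464 assigned counts. Replicate 1 of both strains had a low TMM (trimmed mean of M-values) factor, 0.695 in WT and 0.720 in ubc9-1, against 1.09 and 1.27 for replicate 2. Values are given as counts relative to library size (CPM) scaled with these factors, and log2 fold changes are ubc9-1 over WT. The targeted gene, UBC9, had 2 and 74 counts in WT and 307 and 554 in ubc9-1, so the transcript was counted more often in the mutant, and the test of it is given with the SUMO genes. The strains differed in marker genes too, since TRP1 had 0 counts in both WT libraries and 53 and 92 in ubc9-1, at least 37.1-fold higher against 3 counts over the WT group. ADE2 (14 and 9 counts against 189 and 302) was higher by 3.95 on the log2 scale, and HIS3 (91 and 157 against 1179 and 2574) was higher too, with adjusted p-values of 0.00187 and 0.000157 by edgeR. Part of the strain difference therefore lies at loci other than UBC9, and which differences belong to ubc9-1 cannot be told apart.

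Of the 6115 features, 287 (4.69%) differed, 140 (2.29%) higher and 147 (2.4%) lower in ubc9-1, at an adjusted p under 0.05 by the edgeR quasi-likelihood test. The 147 lower features were 69 nuclear tRNA genes, 13 C/D box snoRNAs, 3 mitochondrial tRNAs, 2 rRNA precursor features, 1 H/ACA box snoRNA, the RNase MRP RNA NME1, the U4 snRNA SNR14, and 57 mRNAs or other features. The 140 higher features were all mRNAs or other features. In both directions every called feature had the 2 libraries of 1 strain above both of the other, which held for 24.8% of the features tested with ubc9-1 above and for 22.6% with ubc9-1 below. The calls depended on the scaling and on the libraries. Scaling by total counts, which moved the median of all features from 0.02 to 0.18 on the log2 scale, left 56 higher (0.916%) and 68 lower (1.11%). Scaling by the snoRNAs alone, which moved that median to 1.03, gave 1504 higher and 28 lower. Without replicate 1 of WT there were 86 higher and 42 lower, and without replicate 2 of ubc9-1 there were 56 and 35.

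**Figure D1:**
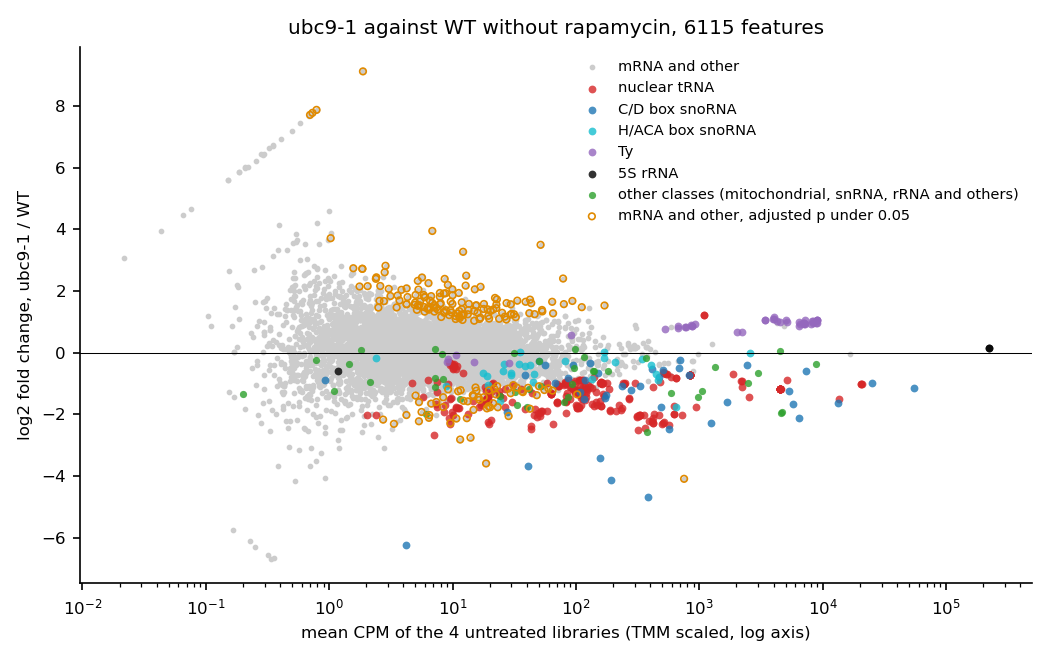
Log2 fold change of ubc9-1 over WT without rapamycin (vertical) against the mean scaled CPM of the 4 untreated libraries (horizontal, log axis) for the 6115 features tested, coloured by RNA class, with open orange circles for the mRNAs and other features past the threshold. All but 2 of the nuclear tRNA genes (red) and all C/D box snoRNAs (blue) lie below 0, 39 of the 44 Ty features (purple) lie above it, and the most counted 5S rRNA genes (black, far right) lie near it.

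Among the C/D box snoRNAs, 13 of 41 tested were lower in ubc9-1, beside 2.4% of all features, and 0 were higher. All 41 had a negative log2 fold change. Their median was -1.09, beside 0.02 for all features. Without replicate 1 of WT 7 were lower, and without replicate 2 of ubc9-1 6 were. Another 6 of the 47 had 0 counts in all libraries (SNR18, SNR24, SNR38, SNR39, SNR54 and SNR59). They lie within host genes, and fragments touching both were not counted, so they were not measured. The snoRNA SNR58, of 96 nt, had 873 and 593 CPM in WT and 19.6 and 37.1 in ubc9-1. Both ubc9-1 libraries lay far below both WT libraries, a log2 fold change of -4.69 (SE 0.449, edgeR adjusted p = 0.000157). SNR39B, also of 96 nt, had 418 and 305 CPM in WT and 23.8 and 17.6 in ubc9-1, a change of -4.13 (SE 0.417, edgeR adjusted p = 0.000181). SNR69, of 101 nt, had 394 and 182 CPM in WT against 34.0 and 20.3, a change of -3.41 (edgeR adjusted p = 0.00381). The groups did not overlap for any of these, and each call held without any 1 of the 4 libraries.

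SNR60, of 104 nt, had the lowest estimate of all snoRNAs, with 104 and 131 counts in WT and 0 and 4 in ubc9-1, a log2 fold change of -6.25 (SE 0.773, edgeR adjusted p = 0.00163). It overlaps the annotated gene YJL047C-A, and fragments touching both were not counted. SNR55, of 98 nt and encoded in a cluster with other snoRNAs, had 80.6 and 69.8 CPM in WT and 7.28 and 4.54 in ubc9-1, a change of -3.68 (edgeR adjusted p = 0.0182, at most 0.076 when 1 library was left out). Further lowered members were SNR62 (-2.48), SNR65 (-2.27), SNR40 (-2.12), SNR48 (-1.93), SNR87 (-1.76) and SNR47 (-1.66). SNR40, for instance, had 11266 and 9580 CPM in WT against 2143 and 2637 in ubc9-1. The remaining 2 were SNR77 (-1.62), of 88 nt, and SNR4 (-1.47), of 186 nt, a guide for the acetylation of 18S rRNA. Among the members that did not pass, the smallest change was that of SNR17A (-0.23). SNR79 had 9853 and 7912 CPM in WT and 7299 and 4414 in ubc9-1, a change of -0.60 (edgeR adjusted p = 0.394). Its strains did not overlap. SNR78 overlapped between the strains, with 863 and 738 CPM against 789 and 353. SNR52, the C/D box snoRNA made by RNA polymerase III, overlapped as well, with 3349 and 2200 CPM against 3012 and 1185, a change of -0.40 (edgeR adjusted p = 0.669).

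**Figure D2:**
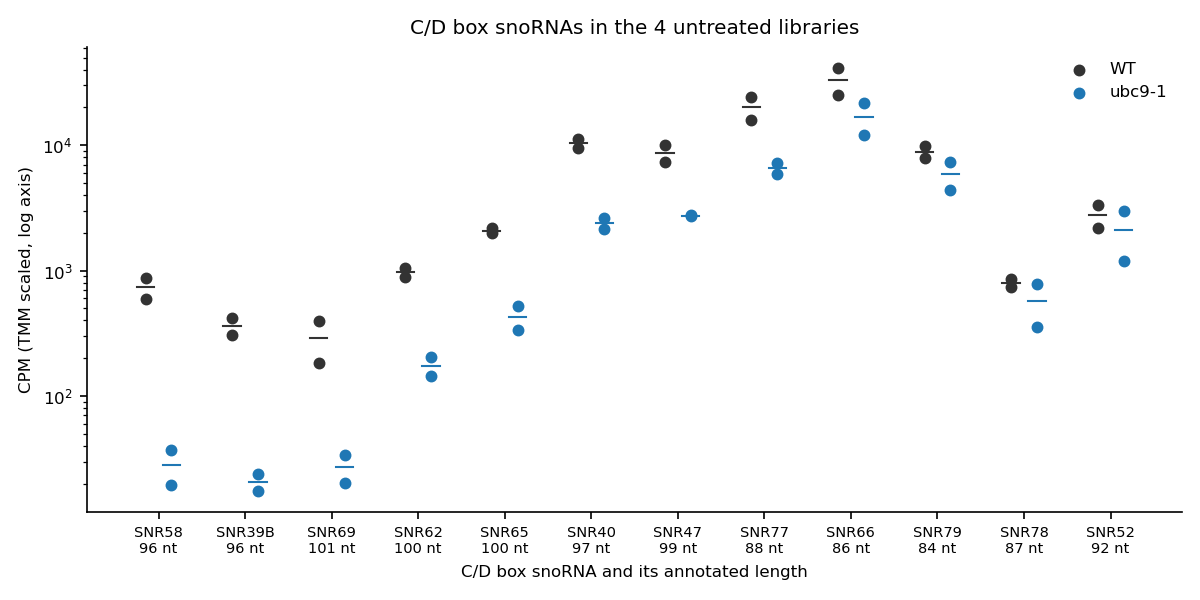
Scaled CPM (log axis) of 12 C/D box snoRNAs in each untreated library, with WT in black, ubc9-1 in blue, points for libraries and bars for the mean of 2. For SNR58, SNR39B and SNR69 both ubc9-1 libraries lie far below both WT libraries, while for SNR78 and SNR52 the strains overlap.

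Split at 100 nt, the upper limit of the RNA selection, the C/D box snoRNAs did not separate. Of the 23 members of 82 to 100 nt 8 were lower, with a median log2 fold change of -1.09, and of the 18 of 101 to 490 nt 5 were, with a median of -1.13. Narrower ranges drawn after the values were seen differed. Of the 16 members of 96 to 113 nt, 11 were lower, with a median log2 fold change of -2.03. Of the 15 members of 82 to 95 nt, 1 was lower (SNR77), with a median of -0.84, and of the 10 members of 124 to 490 nt, 1 was lower (SNR4), with a median of -0.60. The 5 members of the middle range that did not pass were SNR76 (109 nt, -0.40), SNR72 (98 nt, -0.88), SNR73 (106 nt, -0.90, at most 18 counts in an untreated library), SNR51 (107 nt, -1.52) and SNR64 (101 nt, -1.60). No test was made of these ranges. Their order of medians was the same when any 1 of the 4 libraries was left out, with the middle range between -1.71 and -2.28 and the shortest between -0.52 and -1.48. Scaling by the snoRNAs gave medians of 0.01, -1.02 and 0.30 from the shortest to the longest, beside 1.03 for all features. Such a scaling moves all features by a similar amount, so it cannot test the order of the ranges. These snoRNAs also contribute to its factors. Under that scaling the medians on either side of 100 nt were both -0.25.

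**Figure D3:**
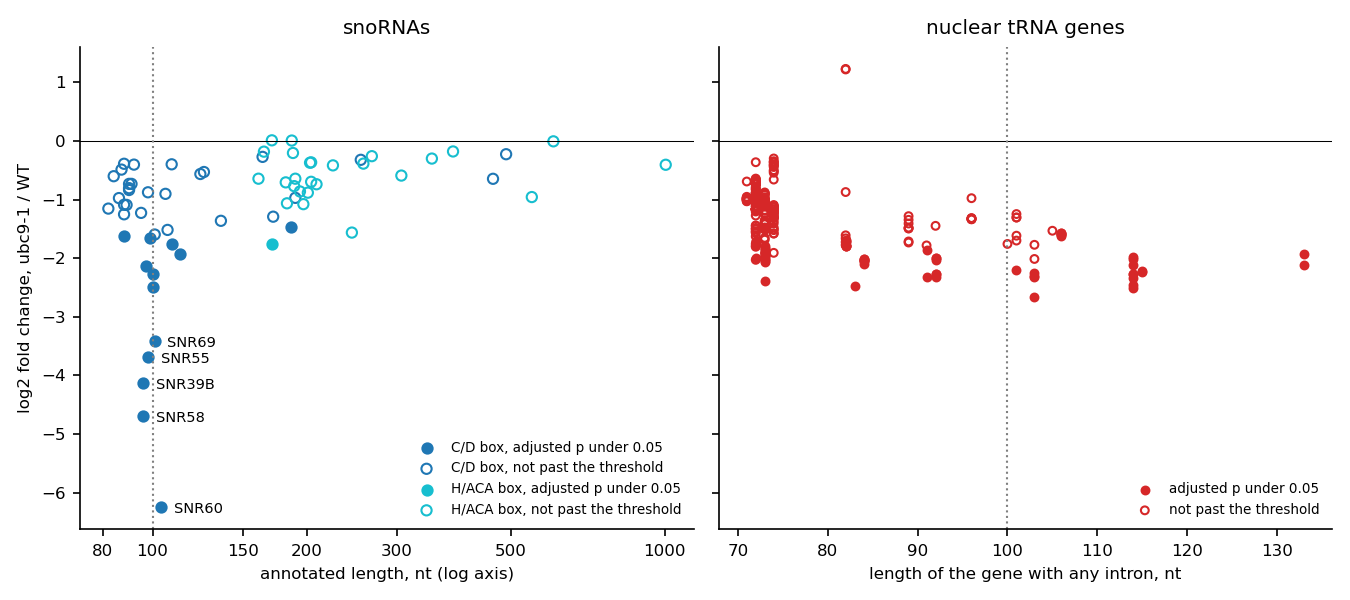
Log2 fold change of ubc9-1 over WT against annotated length for snoRNAs (left, log axis) and nuclear tRNA genes with any intron (right), each point a feature, filled where the adjusted p is under 0.05, with a dotted line at 100 nt, the upper limit of the RNA selection. The lowest snoRNAs cluster between 96 and 104 nt, and all 12 tRNA genes of 114 nt or more are filled.

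In the 4 libraries with rapamycin, none of the 41 C/D box snoRNAs passed the threshold, and the medians of the same 3 length ranges were -0.10, -0.05 and -0.12, from the shortest to the longest. SNR58 had 187 and 137 CPM in rapamycin-treated WT and 251 and 246 in rapamycin-treated ubc9-1. The strain difference with rapamycin minus that without was 5.31 on the log2 scale for SNR58, 5.19 for SNR39B, 8.24 for SNR60 and 5.33 for SNR55, with interaction adjusted p-values of 0.000916, 0.000916, 0.00151 and 0.0445 by edgeR. For SNR55 this rested on 1 library, since rapamycin-treated ubc9-1 had 69.6 and 8.17 CPM and rapamycin-treated WT 13.5 and 11.3. Of all features, 10 (0.164%) passed that interaction test.

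EFB1, which encodes a subunit of translation elongation factor 1, was also lower in ubc9-1 without rapamycin and did not differ with it. It had 1749 and 1096 CPM in WT and 72.8 and 94.2 in ubc9-1, a log2 fold change of -4.09 (SE 0.399, edgeR adjusted p = 0.000157). With rapamycin it had 91.7 and 80 CPM in WT and 87.3 and 88.2 in ubc9-1. Untreated WT alone stood apart from the other 3 groups, whereas in SNR58 untreated ubc9-1 also lay below both rapamycin-treated groups. The intron of EFB1 holds the C/D box snoRNA SNR18, which has 0 counts in every library. Fragments touching both features were not counted, so the EFB1 counts come from the rest of the gene. Of the other 7 genes that host an intronic snoRNA, a set put together after the values were seen, none passed the threshold, with changes from -1.04 (IMD4) to -0.40 (ASC1).

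All H/ACA box snoRNAs tested exceed the selected length. Of these 27, 1 was lower, beside 2.4% of all features, and 0 were higher, with a median of -0.59. Under scaling by the snoRNAs, to which these members contribute, the median was 0.36, beside 1.03 for all features. The lowered member, whose call was lost without either replicate of WT in turn and without replicate 2 of ubc9-1, was SNR80, of 171 nt, with 1096 and 921 CPM in WT and 443 and 153 in ubc9-1, a change of -1.76 (edgeR adjusted p = 0.0409). SNR30, needed for the processing of 18S rRNA, differed by -0.01 (edgeR adjusted p = 0.994). Under scaling by the snoRNAs it differed by 1.12, where the median of all features was 1.03. Of the C/D box snoRNAs with a role in rRNA processing, U3 (SNR17A, -0.23, and SNR17B, -0.65), U14 (SNR128, -0.53) and SNR190 (-0.97) did not pass the threshold. Among the spliceosomal RNAs all 5 tested had a negative log2 fold change, with a median of -1.26. One of them, SNR7-L, had only 4 and 4 counts in WT and 2 and 2 in ubc9-1. It overlaps SNR7-S, and fragments touching both were not counted. Only the U4 RNA SNR14 passed, with 71.0 and 52.0 CPM in WT and 21.8 and 14.5 in ubc9-1 (-1.76, edgeR adjusted p = 0.0143). SNR14 was also lower with rapamycin, by -1.57 (edgeR adjusted p = 0.026). NME1 had 60.2 and 54.7 CPM in WT and 24.6 and 25.8 in ubc9-1, a change of -1.19 (edgeR adjusted p = 0.0351). The call of NME1 was lost in each of the 4 fits without 1 library, and neither NME1 nor SNR14 passed under scaling by total counts, at adjusted p-values of 0.325 and 0.0559.

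Nuclear tRNA was read by anticodon family, because 240 of the 274 genes share their sequence with another and a read that fits several copies was counted at each. Of the 41 families, 15 were lower in ubc9-1 and 0 higher, against 2.14% of features lower and 2.58% higher in the same fit. All 41 had a negative log2 fold change, from -2.27 to -0.28, with a median of -1.46. In 31 families both ubc9-1 libraries lay below both WT libraries, which held for 22.6% of all features tested. Under scaling by the snoRNAs 35 of the 41 were still negative, with a median of -0.45, while the median of all features moved to 1.03. Fewer tRNAs per cell and more of the other RNAs in the library cannot be told apart in these counts.

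The leucine family tL(CAA), with 10 genes, had the lowest estimate, with 9694 and 4490 CPM in WT and 1606 and 1345 in ubc9-1 (-2.27, SE 0.429, edgeR adjusted p = 0.0122). The proline family tP(UGG), with 10 genes, had 198 and 81.5 CPM in WT against 34.7 and 29.8 (-2.11, edgeR adjusted p = 0.0237). In the phenylalanine family tF(GAA) the values were 9483 and 4219 CPM against 2190 and 998 (-2.10, edgeR adjusted p = 0.024). The leucine family tL(UAA), whose genes have no intron, followed with 5103 and 2481 CPM against 882 and 910 (-2.08, edgeR adjusted p = 0.0208). tI(UAU), an isoleucine family of 2 genes, had 35.7 and 22.8 CPM against 9.02 and 5.11 (-2.06, edgeR adjusted p = 0.00709). Strains did not overlap in any of these 5, and replicate 1 of WT was the highest library in each. Only tI(UAU) and tP(AGG) (-1.71) kept their call without any 1 of the 4 libraries.

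At the other end the strains overlapped in all 5 families. The serine family tS(UGA) had 9974 and 6348 CPM in WT and 10979 and 2500 in ubc9-1 (-0.28, edgeR adjusted p = 0.835). Next came tR(CCU) (-0.39), tI(AAU) (-0.49), tH(GUG) (-0.72) and tE(UUC) (-0.83). In tI(AAU), with 13 genes, the values were 191 and 99.3 CPM against 118 and 88.5. The 3 genes of tS(UGA) are identical in sequence and still gave different counts. tS(UGA)I, on chromosome IX, had a log2 fold change of -0.87, whereas tS(UGA)P and tS(UGA)E had 1.22 and 1.23, none of them past the threshold. The families that took most of the tRNA counts, tD(GUC) (-1.24, edgeR adjusted p = 0.105) and tG(GCC) (-1.03, edgeR adjusted p = 0.257), did not pass either. Both have 16 genes, and a read shared by copies enters these sums more than once.

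**Figure D4:**
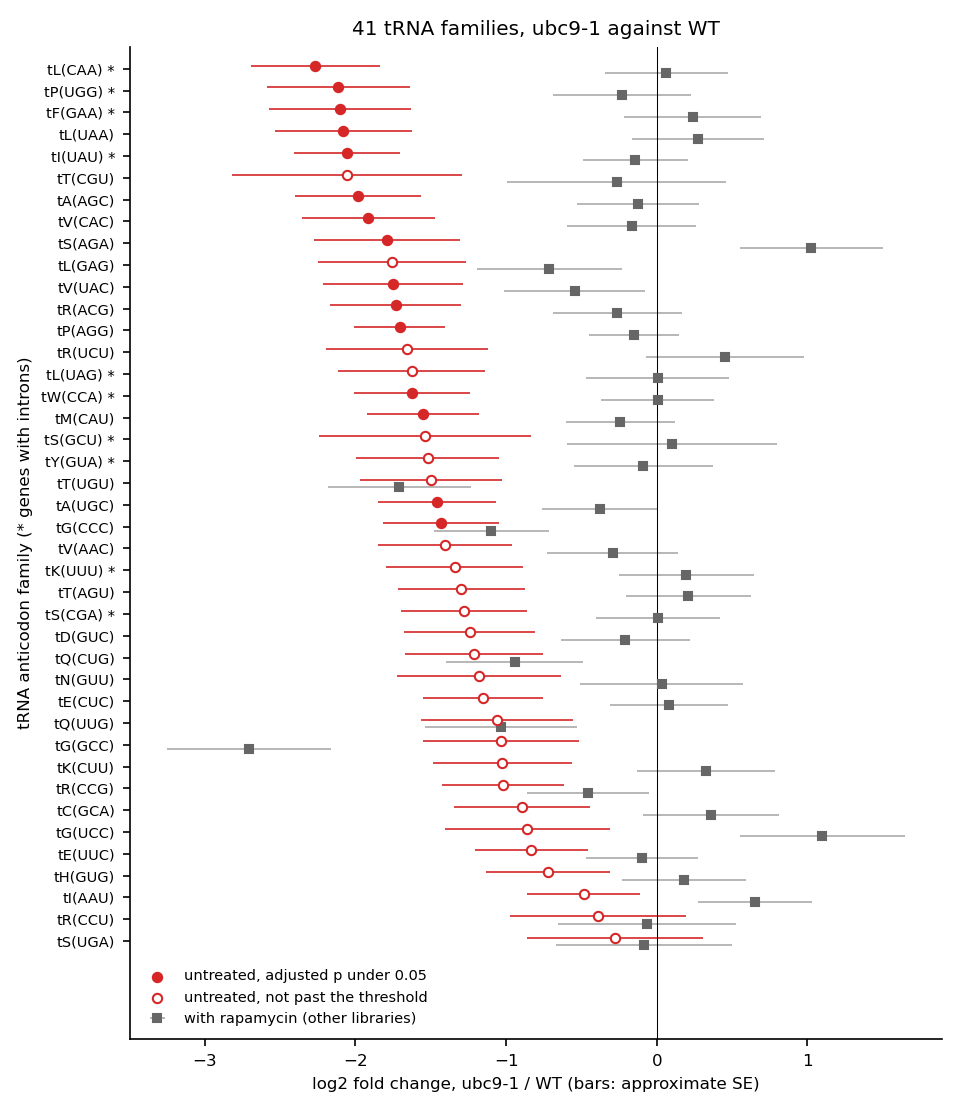
Log2 fold change of ubc9-1 over WT for 41 tRNA anticodon families, in red for the untreated libraries (filled where the adjusted p is under 0.05) and as grey squares for the rapamycin-treated libraries, with bars for the approximate SE and asterisks for families whose genes have introns. All red points lie below 0, between -2.27 and -0.28, and most grey squares lie near 0, with tG(GCC) at -2.71 apart from the rest.

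Families with introns included 3 of the 4 lowest. Of the 10 families with introns, 5 were lower, with a median of -1.62, and of the 31 without, 10 were lower, with a median of -1.30. Gene by gene, 31 of 57 tested genes of intron families were lower, and 38 of 206 of the others, beside 2.4% of all features. Copies of a gene share reads, however, and are not independent. Length moved with this as well. The median log2 fold change was -1.11 for genes of 71 to 73 nt, -1.17 at 74 nt, -1.73 at 82 to 89 nt, -1.77 at 91 to 100 nt, -1.62 at 101 to 106 nt and -2.23 at 114 to 133 nt. Across the 41 families, which share libraries and in part reads, Spearman's rho between gene length and the log2 fold change was -0.51, and with the length of the exons alone it was -0.32. Intron and length cannot be told apart in most of these genes, and their parts in the result were not tested. With rapamycin the same rho with gene length was 0.28.

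The call of these families rested on 2 libraries. Without replicate 1 of WT, the library with the most tRNA, 2 families were lower, and without replicate 2 of ubc9-1, the one with the least, 3 were. With the other replicates left out, 14 and 17 were lower. By share of assigned counts, nuclear tRNA took 24.4% and 21.3% in WT and 13.1% and 9.03% in ubc9-1, so both ubc9-1 libraries lay below both WT libraries without any scaling factor. Under scaling by total counts, 4 families were lower, against 0.373% of features lower in that fit, and all 41 remained negative. With rapamycin, 1 of the 41 families was lower in ubc9-1, tG(GCC) (-2.71, edgeR adjusted p = 0.0147), and the median was -0.09, in a fit where 1.56% of features were lower. No family passed the interaction test by edgeR, while 21 did at an unadjusted p under 0.05.

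Mitochondrial tRNAs are not made by RNA polymerase III. Of 18 tested, 3 were lower, beside 2.4% of all features, and 0 higher, with a median of -1.27, and all 18 were negative. None of them passed without replicate 1 of WT, and none without replicate 2 of ubc9-1. The lowest, tE(UUC)Q, had 926 and 362 CPM in WT and 139 and 75.7 in ubc9-1 (-2.58, edgeR adjusted p = 0.026). Of the RNA polymerase III transcripts other than tRNA, 0 of 7 tested passed in either direction with edgeR and with DESeq2. At an unadjusted p under 0.05, 1 was lower. Their median was -0.17, or 0.79 under scaling by the snoRNAs, where that of all features was 1.03. The 5S gene RDN5-1, whose copies share reads, had 277631 and 144225 CPM in WT and 329376 and 136384 in ubc9-1 (0.14, edgeR adjusted p = 0.887). SCR1 had 5015 and 3927 CPM against 3537 and 5667 (0.04, edgeR adjusted p = 0.962). RPR1 differed by -0.17 and SNR6 by -1.26, with adjusted p-values of 0.82 and 0.15 by edgeR. 5S and SCR1 fragments come from RNAs above the selected length, and only parts of them were counted.

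Fragments of the rRNA precursor were lower. RDN37-1, counted only where it touches none of the mature rRNA genes annotated within it, had 106208 and 92406 counts in WT and 37468 and 29504 in ubc9-1 (-1.95, edgeR adjusted p = 0.0351), and RDN37-2, which shares its reads, -1.92. Of 106 ribosome biogenesis genes 4 were lower and 0 higher, beside 2.4% of all features lower, so the count is near the background. The median was -0.69, beside 0.02 for all features, and 103 were negative. The 4 were NSR1, the yeast nucleolin, with 22.1 and 24.3 CPM in WT and 4.61 and 8.13 in ubc9-1 (-1.86, edgeR adjusted p = 0.0263), UTP10 (-1.21), LTV1 (-1.16) and MAK21 (-1.09). Of 137 ribosomal protein genes 4 were lower and 0 higher (RPS21A, -2.02, RPL28, -1.53, RPS7A, -1.35, and RPL34A, -1.13), also near the background share, with a median of -0.46. Under scaling by the snoRNAs both medians turned positive, to 0.34 and 0.63, below the 1.03 of all features, and under scaling by total counts no member of either list passed. Without replicate 1 of ubc9-1 no biogenesis gene passed, without replicate 1 of WT 1 did and without replicate 2 of WT 2 did, and no ribosomal protein gene passed without replicate 2 of WT, 2 without replicate 1 of WT. With rapamycin the median of the biogenesis genes was 0.59, with 7 higher and 0 lower, against 1.24% higher and 0.769% lower of all features. LTV1, which acts in the export of the small ribosomal subunit, passed the interaction test, at 2.68 (edgeR adjusted p = 0.0404).

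Among genes of the general stress response, part of the list was higher in ubc9-1. Of 48 members 11 were higher and 0 lower, beside 2.29% of all features higher, with a median of 0.90 beside 0.02, and 44 were positive. GSY1, a glycogen synthase, had 6.85 and 2.61 CPM in WT and 20.4 and 15.1 in ubc9-1 (1.94, SE 0.409, edgeR adjusted p = 0.0241). HSP12, a membrane-associated stress protein, had 55.8 and 33.5 CPM against 138 and 147 (1.68, edgeR adjusted p = 0.0308), and HXK1, a hexokinase, 38.4 and 23.8 CPM against 119 and 75.3 (1.65, edgeR adjusted p = 0.0263). The strains did not overlap in these 3. TSL1 (1.57) and TPS1 (1.25), of trehalose synthesis, UGP1 (1.25), GRX2 (1.47), PNC1 (1.28), MSC1 (1.23), ALD3 (1.38) and ALD2 (1.21) made up the rest. Without replicate 2 of WT 1 member passed, without replicate 1 of ubc9-1 2 did, without replicate 2 of ubc9-1 5 did, and under total counts 5. With rapamycin, where the strains were measured in other libraries, 11 of the 48 were higher, beside 1.24% of all features, with a median of 1.05, and 3 members were higher in both comparisons.

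Of 30 chaperone genes 3 were higher and 0 lower, beside 2.29% of all features higher, with a median of 0.80 beside 0.02. They were HSP78 (1.60) and MDJ1 (1.54), which act in mitochondria, and HSP82, with 95.3 and 80.2 CPM in WT and 263 and 244 in ubc9-1 (1.53, edgeR adjusted p = 0.0263). No chaperone gene passed without replicate 2 of WT, and 1 did without replicate 1 of ubc9-1. All 34 proteasome genes had a positive log2 fold change, with a median of 0.84, and 5 passed, beside 2.29% of all features higher. PRE1, a subunit of the core particle, had 11.2 and 13.1 CPM in WT and 32.9 and 33.3 in ubc9-1 (1.44, SE 0.274, edgeR adjusted p = 0.0187), and the others were RPT5 (1.42), PUP3, PRE4 (1.32) and SCL1 (1.07). No proteasome gene passed without replicate 1 of WT, 1 passed without replicate 2 of ubc9-1, and none passed under total counts, where the median of the list was 1.00. Genes of respiration and the TCA cycle had a median of 0.86 over 41 members. Of these 1 was higher (IDH2, 1.10), near the 2.29% of all features higher, a call lost in each of the 4 fits without 1 library. Ty retrotransposon features had a median of 0.94 over 44 tested, with 0 past the threshold by edgeR, 36 higher at an unadjusted p under 0.05 and 34 higher with DESeq2. Under scaling by total counts 14 were higher by edgeR, beside 0.916% of all features. Under scaling by the snoRNAs 39 were higher, where 1504 of all 6115 features were. YOL103W-B, the most counted of them, had 6576 and 5196 CPM in WT and 13671 and 10706 in ubc9-1. Copies of Ty share reads, so these features are not separate measurements.

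**Figure D5:**
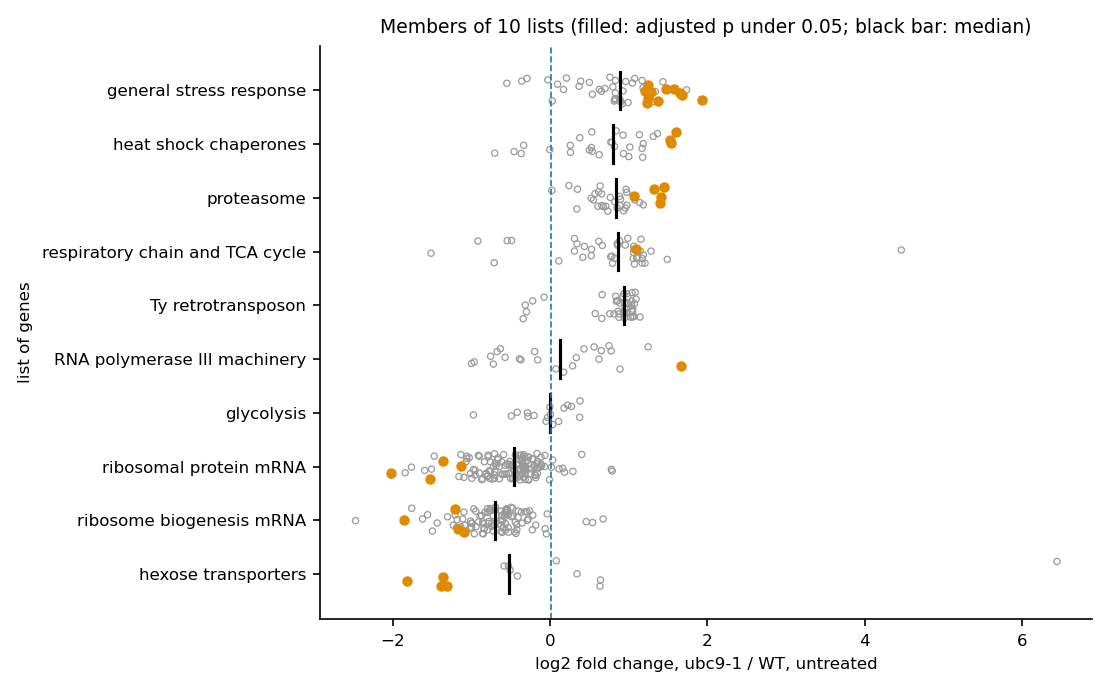
Log2 fold change of ubc9-1 over WT without rapamycin for the tested members of 10 lists of genes, with filled orange points past the threshold, black bars at each list's median and a dashed line at the median of all features. The medians of the stress, chaperone, proteasome, respiration and Ty lists lie between 0.80 and 0.94, and those of the ribosomal protein, ribosome biogenesis and hexose transporter lists between -0.69 and -0.46.

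Single genes stood out on the higher side. Beside ADE2, HIS3 and UBC9, the largest changes among well-counted genes were YNL058C (2.82), YBR085C-A (2.50), CUZ1 (2.44), PEX19 (2.40), RNR3 (2.39), FIS1 (2.33), YGR122C-A (2.25), TSA2 (2.20), RIM4 (2.17), YJL068C (2.14), SLF1 (2.08) and UIP4 (2.07). PUT2 (2.05) is described below. RNR3, a ribonucleotide reductase subunit known to rise after DNA damage, had 2.49 and 2.99 CPM in WT and 16.1 and 13 in ubc9-1 (SE 0.346, edgeR adjusted p = 0.00392). It was the only one of 20 DNA damage response genes to pass, beside 2.29% of all features higher, with a list median of 0.70. TSA2, a cytosolic peroxiredoxin, had 2.85 and 3.66 CPM against 18.0 and 12.2 (edgeR adjusted p = 0.00832). CUZ1, a zinc finger protein linked to the proteasome, had 2.14 and 1.44 CPM against 6.94 and 12.1 (edgeR adjusted p = 0.0143). PEX19, needed to insert peroxisomal membrane proteins, had 23.6 and 26.4 CPM against 133 and 132 (edgeR adjusted p = 0.00227), and it is the gene next to UBC9. With rapamycin RNR3 (1.85), TSA2 (2.83), YBR085C-A (2.74), PEX19 (2.82) and RIM4 (1.78) were again higher. Their adjusted p-values there were 0.019, 0.0018, 0.0018, 0.0017 and 0.035 by edgeR. Over all 140 features called higher, 28 were again higher with rapamycin.

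MRM1, next to HIS3, was higher by 1.25 and AFI1, next to ADE2, was lower by -1.60, with adjusted p-values of 0.0322 and 0.032 by edgeR. URA3 had 0 counts in both WT libraries and 19 and 34 in ubc9-1, at least 13.6-fold higher against 3 counts over the group. It did not pass (edgeR adjusted p = 0.0844). The difference did not recur with rapamycin, where URA3 had 6 and 0 counts in WT and 4 and 2 in ubc9-1 (0.77, edgeR adjusted p = 0.867). Of 36 genes under nitrogen catabolite repression 2 were higher and 0 lower, beside 2.29% of all features higher, with a median of 0.44. PUT2, which acts in the use of proline, had 3.92 and 3.83 CPM in WT and 13.4 and 18.8 in ubc9-1 (SE 0.326, edgeR adjusted p = 0.00832), and the allantoin permease DAL4 was higher by 1.46, a call lost in each of the 4 fits without 1 library. With rapamycin DAL4 had a log2 fold change of -1.31, and passed the interaction test (-2.77, edgeR adjusted p = 0.0445).

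On the lower side, the list of hexose transporters with their regulators had 4 of 14 lower, beside 2.4% of all features. They were HXT1 (-1.82), HXT2 (-1.38), HXT3 (-1.35) and the repressor of glucose-repressed genes MIG1 (-1.31). In the other direction 0 passed, 5 members had a positive log2 fold change, up to 6.45, and 1 was higher at an unadjusted p under 0.05. HXT1 had 57.1 and 74.9 CPM in WT and 12.5 and 24.9 in ubc9-1 (edgeR adjusted p = 0.0202). PHO84, a phosphate transporter, had 43.5 and 48.2 CPM against 12.4 and 9.69 (-2.06, edgeR adjusted p = 0.0143). UTR5 had 23.4 and 17 CPM against 3.14 and 2.59 (-2.82, edgeR adjusted p = 0.00175) and BSC1 changed by -2.76. tX(XXX)D, a tRNA-like feature that overlaps YDR340W, changed by -3.59 with the counts 702 and 117 against 73 and 23. Without replicate 1 of WT that change was -1.18 (edgeR adjusted p = 0.386, from 0.00504 over the 4 such fits), and the call was also lost without replicate 2 of ubc9-1. IMD3 (-1.28) and IMD2 (-1.22), near-identical genes of guanine nucleotide synthesis, ERG5 (-1.38), of ergosterol synthesis, SAM1 (-1.14), of S-adenosylmethionine synthesis, and the histone gene HTB2 (-1.25) also passed. The calls of SAM1 and IMD2 were lost in each of the 4 fits without 1 library, those of ERG5 and HTB2 in 3 and that of IMD3 in 2, and all 5 under total counts. No member of the hexose transporter list passed under total counts, and 1 did without replicate 2 of WT or without either replicate of ubc9-1. Since most mRNAs exceed the selected length, their counts are of fragments, and whether these follow the intact mRNA was not tested.

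Of 14 SUMO pathway genes only UBC9 passed (3.27, SE 0.645, edgeR adjusted p = 0.0198, and 0.0501 without replicate 2 of ubc9-1), and the gene for SUMO, SMT3, differed by 0.67 (edgeR adjusted p = 0.363). Of 24 genes of the RNA polymerase III machinery only TFC7, a subunit of the assembly factor TFIIIC, passed, with 2.31 and 2.88 CPM in WT and 9.75 and 6.88 in ubc9-1 (1.66, edgeR adjusted p = 0.0282), a call lost without any 1 of 3 libraries. Their median was 0.12, and of all features 2.29% were higher. Of 51 genes of tRNA processing and modification none passed in either direction by edgeR, 8 were lower at an unadjusted p under 0.05 and 1 was lower with DESeq2, with a median of -0.48.

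Of the 140 features higher in ubc9-1, 28 (20%) were also higher with rapamycin. There 76 features (1.24% of those tested) were higher, so that the 28 made 36.8% of those. Of the 147 lower features, 12 (8.16%) were also lower with rapamycin, which is 25.5% of the 47 (0.769% of those tested) lower there. The median log2 fold change of the 140 was 1.57 without and 0.64 with rapamycin, and that of the 147 was -1.89 and -0.16. Both sets were chosen by their untreated values, which inflates the untreated medians, so this drop does not measure an effect of rapamycin. The direct test of the difference passed for 1 of the 140 and 7 of the 147, beside 0.164% of all features. It uses the same untreated values by which these sets were chosen.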

How the data were processed

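Small RNA was counted in 8 libraries, 2 in each of 4 groups taken from the sample labels. Per the submitters' processing notes, the tools were featureCounts 1.4.6-p3 and TopHat2 2.0.13, with the build R64. The deposited values used are raw counts of fragments per gene, and a deposited table of normalized values was not used. Per the file headers, reads with several alignments were counted at each, strand was ignored and fragments touching more than 1 gene were dropped. Of 6048 features with a locus tag in the R64 annotation, 6036 had the same start and end there.

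Features were tested with the quasi-likelihood test of edgeR 4.0.16 in R 4.3.3 on all 8 libraries (1 coefficient per group, TMM factors, filterByExpr with a minimum count of 10), with Benjamini-Hochberg adjustment and a threshold of 0.05. The 4 groups share 1 estimate of the spread, with a common dispersion of 0.0926. The SE is the absolute log2 fold change over the square root of F, and is approximate. Reads of anticodon families were summed and tested in another such fit. Alternatives were DESeq2 1.42.0, other scalings, no filter, the 4 untreated libraries alone, a replicate block and leaving out each library.

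For a group at 0, a bound was set at 3 counts over the group, for counting error only. Features named are, in each direction, the 15 called features changed most that have separate strains and average 50 counts or more, a list of RNA polymerase III, snoRNA, snRNA, SUMO and marker genes, the 3 highest and 3 lowest called members of each of 44 lists (the 2 most counted where none was called), other called snoRNA, SUMO and RNA polymerase III genes, and the 5 highest and 5 lowest families. Further called members, hosts, neighbouring genes and length ranges were picked with their values in view. Members and lists were chosen with earlier results of these data known.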

Additional observations from a re-analysis of the deposited data

Results flagged for a closer look

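In 8 of the features named or called, of 10 among all features tested, the strain difference itself differed between untreated and rapamycin-treated cells by the edgeR interaction test, given as the difference with rapamycin minus that without (log2). It was 8.24 for SNR60, 5.31 for SNR58, 5.19 for SNR39B, 5.33 for SNR55, 4.12 for EFB1 (adjusted p = 0.00241), 3.49 for the serine tRNA gene tS(AGA)D3 (adjusted p = 0.0445), 2.68 for LTV1 and -2.77 for DAL4. In SNR58, SNR39B, SNR60 and EFB1 untreated WT had the highest values of the 4 groups. For tS(AGA)D3 the scaled CPM were 100.2 and 46.9 in untreated WT, 17.9 and 8.74 in untreated ubc9-1, 12.6 and 6.84 in rapamycin-treated WT and 21 and 18.4 in rapamycin-treated ubc9-1. The features named were chosen on the untreated difference, which is part of this interaction, so the test is not independent of that choice.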

How the results depend on the processing

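Against 140 features higher, 147 lower and 15 families lower, the 4 untreated libraries alone gave 32, 54 and 8, the DESeq2 Wald test 275, 308 and 22, factors from the snoRNAs 1504, 28 and 2, no filter 228, 237 and 26, and total counts 56, 68 and 4. Leaving out 1 library gave 56 to 88 features higher, 35 to 143 lower and 2 to 17 families lower, with 0 families higher. With the replicate block, 487 features were higher, 525 lower and 37 families lower. With it 23 families passed the interaction test, against 0. Deviations of same-numbered libraries correlated positively across features in all 6 pairs of groups (0.167 to 0.355), which is a hint of pairing, but only 2 numbers exist and the labels tie them to no shared culture or day. With total counts, 7 of the named features passed under rapamycin (16 with TMM) and 5 passed the interaction test (8 with TMM). Of 133 features and families named, 81 were called, of which 35 lost the call with total counts, 38 with the 4 libraries alone and 31 to 47 without 1 library. Under the snoRNA factors SNR30 turned to 1.12 and PDC1 to 1.10, beside a median of 1.03 for all features. The share of nuclear tRNA was lower in ubc9-1 by -11.8 percentage points, by -16.05 with 5S rRNA left out of the total, and that of C/D box snoRNAs by -8.45 and -11.6. The share of Ty was higher by 13.2 points, and by 23.9 without 5S. The share of 5S differed by 6.10 points, by 14.6 without Ty, and from -0.217 (without replicate 1 of ubc9-1) to 12.4 when 1 library was left out. In these shares a read was counted at each copy it fits, so RNAs with many copies weigh more. The causes of these shifts were not tested. With 2 libraries a group, a permutation of 1 value cannot go below p = 0.333.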
